A study of Mus musculus with 18 samples.

Results

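Cholesterol and fatty acid synthesis was followed through 31 genes in mouse embryonic stem cells (ESCs) leaving naive pluripotency. The 31 genes were listed by symbol, as the enzymes of sterol and fatty acid synthesis and the SREBP genes, and were matched to the gene identifiers of a table of 53801 genes. All 31 passed the filter on low counts, which kept 18469 genes. By role they comprise 7 genes of the mevalonate steps, 11 of the steps from squalene to cholesterol, 4 regulators and sterol carriers, and 9 genes of fatty acid synthesis, desaturation and activation.

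RNA-seq counts came from 18 libraries of 2 lines, 3 per group. WT cells are the E14 line (E14TG2a). The iEZR_CA line was made from E14 cells with a PiggyBac system and carries a doxycycline-inducible, phosphomimetic ezrin linked to mCherry, ezrin being a protein that ties the plasma membrane to the actin cortex; whether the line is 1 clone is not given in the sources used here. Both lines were grown on gelatin and collected in 2i+LIF, the medium that keeps ESCs naive, at 0 h, and again once 2i+LIF had been withdrawn for 24 h (T24) or 48 h (T48) in N2B27 medium. Doxycycline was given to the iEZR_CA cells from about 16 h before exit and is not stated for WT cells, so drug and transgene cannot be told apart. Other differences between the 2 lines, such as the chromosome 14 stretch described below, cannot be told apart from them either. Counts on genes per library ran from 10940752 to 33276622. Levels are given as normalized counts, which are reads per gene divided by a size factor for each library, and fold changes as log2 values from edgeR with a standard error (SE). A gene was called at a Benjamini-Hochberg adjusted p under 0.05. The samples are bulk populations, so fewer cells of a type and less RNA per cell cannot be told apart.

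Cholesterol is built from acetyl-CoA. The mevalonate steps make farnesyl pyrophosphate, which is joined to squalene, closed to lanosterol and trimmed to cholesterol in a chain of membrane enzymes. The SREBP transcription factors, encoded by Srebf1 and Srebf2, are held in the endoplasmic reticulum with Scap and the Insig proteins while sterols are plentiful, and are cut free when sterols fall. Cut SREBP2 mainly drives sterol genes and SREBP1 mainly fatty acid genes, at sites in their promoters that often lie close to a CCAAT box, to which NF-Y binds. Scd, Fads and Elovl enzymes set how unsaturated and how long the fatty acids of membrane lipids are.

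The labelled lines and stages were checked first. Ezr was at 11763 ± 277 normalized counts in WT ESCs and 24819 ± 499 in iEZR_CA ESCs (SD, n = 3), at 7711 ± 175 and 20793 ± 564 at T24, and at 10096 ± 413 and 16215 ± 165 at T48, without overlap at any stage. Reads of the transgene and of the native gene are not separated in these counts. Summed over 8 ES cell markers, the mean level fell from 109916 in WT ESCs to 76785 at T24 and 36147 at T48, and in iEZR_CA cells it was 94595, 81736 and 42886. Of 7 fibroblast or feeder markers the summed level was 43 in WT ESCs, 52.4 in iEZR_CA ESCs, 608 in WT T48 cells and 396 in iEZR_CA T48 cells. Dcn was the highest of them at T48, at 227 in WT and 331 in iEZR_CA cells, while Postn stayed under 1 in every group. From ESC to T48, 4 of the 4 tested markers of this list were called higher in WT and 2 of 4 in iEZR_CA cells (all genes 37.1% and 35.2%). The 8 primitive endoderm markers summed to 255 in WT and 781 in iEZR_CA ESCs, of which Dab2 made up 45.2 and 631, while Gata4 was at 97.5 and 17.4 and Sox17 at 25.3 and 19.1. At T24 the same list summed to 172 and 421, and at T48 to 384 and 273. The 6 trophoblast markers summed to 3056 and 1934 in ESCs, most of it Tfap2c, and the 4 early neural markers to 814 and 1161, most of it Nes. At T24 the trophoblast markers summed to 202 in WT and 290 in iEZR_CA cells and the early neural markers to 861 and 816. At T48 the sums were 296 and 472 for trophoblast and 1676 and 911 for early neural markers. Their part in the differences described here was not tested.

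Promoter windows were available from RefSeq (build GRCm38.p6) for 24 of the 31 genes, each of 250 bases before and 50 after a start site. The other 7, Fdps, Fdft1, Sqle, Stard4, Scd1, Scd2 and Fads1, had no window and were not searched. The SREBP site TCACNCCAC, searched on both strands, was found in 1 of the 24, Hmgcs1 (4.17%), against 1.49% of the 11943 tested genes with a window. The box CCAAT was found in 20 of 24 (83.3%), against 42.9%, and the GC box GGGCGG in 20 of 24 (83.3%), against 66.0%. The shorter core CACCCCA, which can overlap the SREBP site, was in 3 of 24 and the E-box CACGTG in 4 of 24 (9.64% and 11.4% of the tested genes). A match describes letters in a window and not a bound site. The 250 bases before the start are shown for Hmgcs1, chr13:119690101-119690350 on the plus strand, with the SREBP site in capitals, because it is the only window with that site. The match begins 137 bases before the start.

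Hmgcs1: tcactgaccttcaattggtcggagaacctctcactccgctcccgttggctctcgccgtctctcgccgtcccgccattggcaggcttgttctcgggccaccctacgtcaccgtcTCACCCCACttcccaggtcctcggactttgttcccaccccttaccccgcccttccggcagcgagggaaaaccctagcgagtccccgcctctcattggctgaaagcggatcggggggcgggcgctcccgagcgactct

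Ebp, chrX:8193513-8193762 on the minus strand, and Nsdhl, chrX:72918271-72918520 on the plus strand, are shown because they had the largest differences between the lines at T48, a choice made after the values were seen. Capitals mark the CCAAT boxes in the 250 bases shown, 2 in each, which lie on the opposite strand and so read ATTGG. The whole window of 300 bases holds 4 for Nsdhl and 2 for Ebp.

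Ebp: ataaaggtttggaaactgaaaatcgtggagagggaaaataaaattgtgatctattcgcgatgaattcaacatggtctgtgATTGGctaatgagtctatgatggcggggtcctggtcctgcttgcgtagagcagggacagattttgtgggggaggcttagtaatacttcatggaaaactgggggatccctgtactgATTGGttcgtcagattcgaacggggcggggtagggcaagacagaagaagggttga

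Nsdhl: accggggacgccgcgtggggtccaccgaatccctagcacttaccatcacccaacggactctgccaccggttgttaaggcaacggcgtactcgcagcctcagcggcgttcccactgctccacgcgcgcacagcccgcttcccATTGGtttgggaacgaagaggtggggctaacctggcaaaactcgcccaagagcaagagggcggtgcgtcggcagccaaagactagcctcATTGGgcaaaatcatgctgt

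Between the lines, most of the 31 genes were higher in iEZR_CA cells at each stage, by modest amounts. In ESCs 27 were called higher and 1 lower, where 26.4% of all tested genes were called higher and 28.1% lower. The median log2 fold change of the 31 was 0.56, against -0.01 for all tested genes. At T24 the numbers were 22 higher and 6 lower (all genes 30.8% and 30.1%) with a median of 0.32 against 0.00. At T48 they were 27 higher and 2 lower (all genes 31% and 30.1%) with a median of 0.44 against 0.00. A total of 21 genes were called higher at all 3 stages, as were 12.2% of all tested genes, and Fdft1 was the 1 gene called lower at all 3, as were 11.1%. An added limit of 0.5 on the log2 fold change left 16 of the 31 called higher in ESCs, 11 at T24 and 14 at T48. Of all tested genes 11.3%, 15.7% and 15.3% passed that limit. With a limit of 1 the counts were 0, 0 and 1, Ebp at T48 (all genes 5.59%, 7.88% and 7.83%). For 31 genes these last counts are not far from the shares over all genes.

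**Figure D1:**
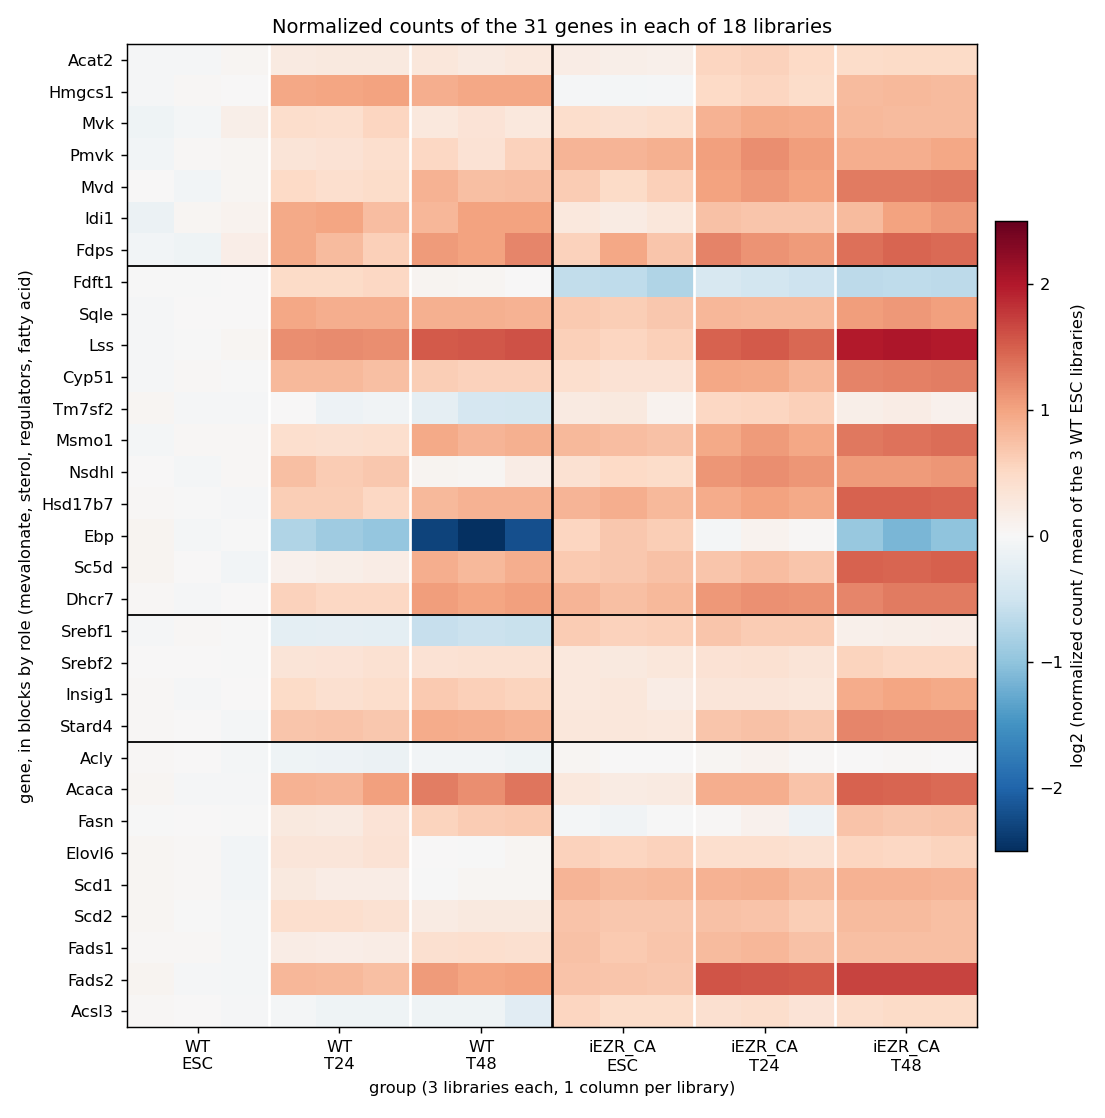
Normalized count of each of the 31 genes (rows, in blocks by role) in each of the 18 libraries (columns, 3 per group), as log2 of the ratio to the mean of the 3 WT ESC libraries; red is higher and blue lower. Most rows are redder on the iEZR_CA side, Fdft1 is blue there in every library, and Ebp is blue at T48 in both lines, going from 791 to 153 mean normalized counts in WT and from 1208 to 388 in iEZR_CA cells.

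The replicates of a group lay close together. In ESCs every iEZR_CA library was above every WT library for 27 of the 31 genes and below for 2 (28.9% and 29.2% of all tested genes), at T24 for 22 and 6 (32.2% and 31.7%), and at T48 for 28 and 2 (32.2% and 32.3%). The overlapping genes were Hmgcs1 and Acly in ESCs, Srebf2, Stard4 and Acaca at T24, and Idi1 at T48. Summed over the 31 genes, WT ESCs had 138263 ± 1821 normalized counts and iEZR_CA ESCs 177306 ± 2128 (SD, n = 3), a ratio of 1.28. At T24 the sums were 178047 ± 1200 and 195608 ± 6455, a ratio of 1.10, and at T48 183114 ± 1451 and 226463 ± 683, a ratio of 1.24. The groups did not overlap at any stage, and the two-sided exact permutation p was 0.1 each time, the smallest that 3 libraries against 3 allow. The ratio depends on a few abundant genes. Without Scd1 and Scd2 it was 1.18, 1.05 and 1.17. Without Fasn and Acly, a calculation added after the values were seen, it was 1.42, 1.15 and 1.31.

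The sum of the steps from squalene to cholesterol was 1.36 times the WT value in ESCs, 1.09 at T24 and 1.27 at T48, that of fatty acid synthesis 1.29, 1.14 and 1.27, and that of the regulators 1.26, 1.09 and 1.22. The mevalonate sum was 1.14 times the WT value in ESCs, 0.94 at T24 and 1.05 at T48, and at T24 every iEZR_CA library was below every WT library (20442 ± 534 against 21748 ± 260). Hmgcs1 is a large part of that sum (13684 in WT and 9769 in iEZR_CA cells at T24), and without it the ratios were 1.33 in ESCs, 1.32 at T24 (8064 ± 36 in WT and 10673 ± 275 in iEZR_CA cells) and 1.28 at T48, a calculation added after the values were seen.

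**Figure D2:**
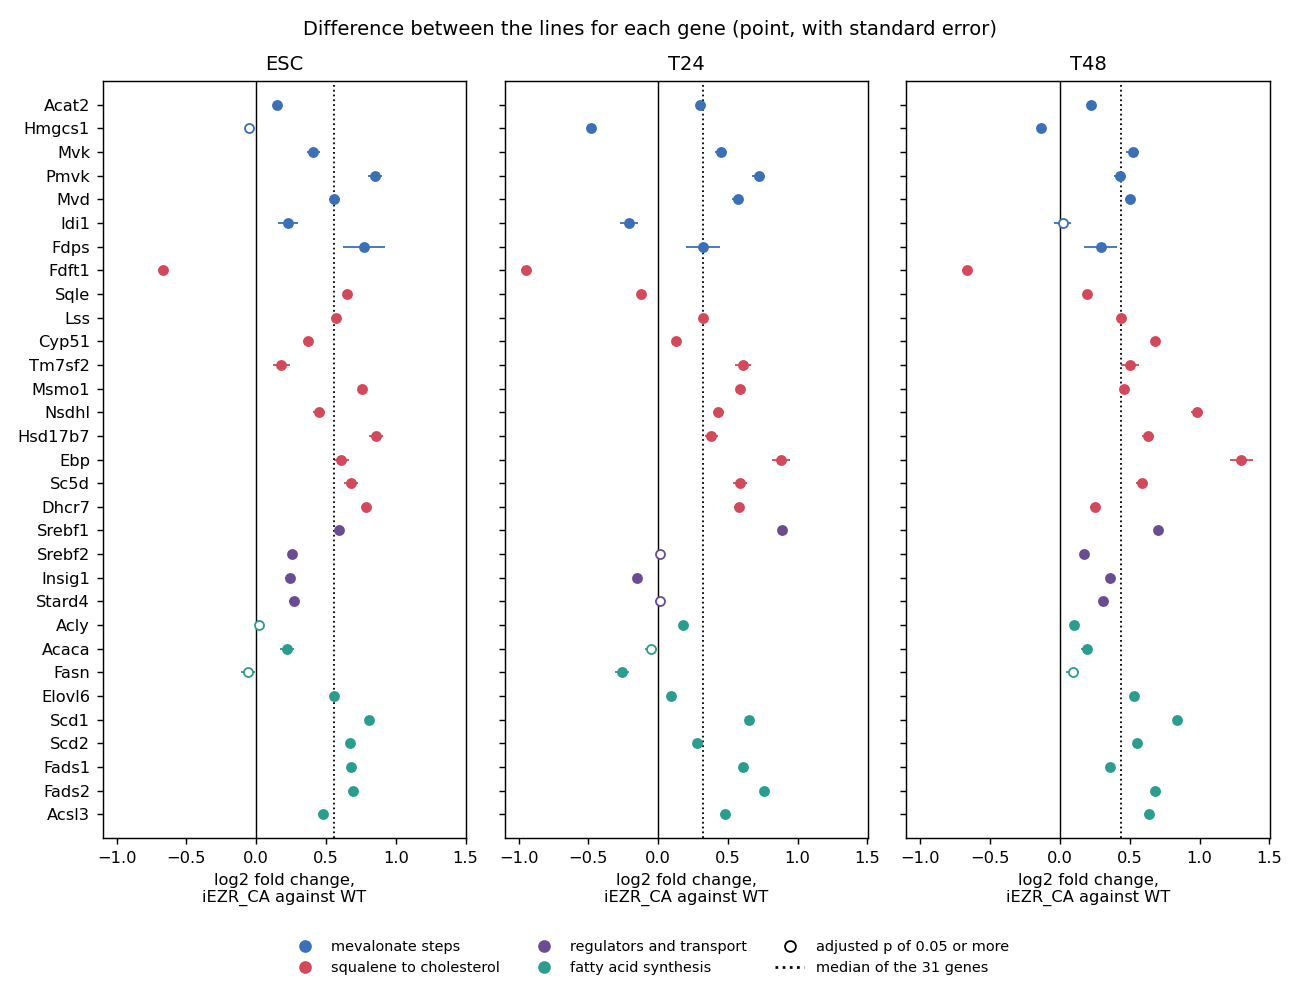
Log2 fold change of iEZR_CA against WT (x axis) for each of the 31 genes (y axis) in ESCs, at T24 and at T48, with SE as bars, colours for the 4 role groups, open circles for genes not called and a dotted line at the median of the 31. The medians stand at 0.56, 0.32 and 0.44, and Fdft1 lies at -0.67, -0.95 and -0.67.

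Among the mevalonate genes, 6 of 7 were called higher in iEZR_CA ESCs and none lower. At T24 the split was 5 higher and 2 lower and at T48 5 and 1. The shares over all tested genes given for each stage (26.4%, 30.8% and 31% higher, 28.1%, 30.1% and 30.1% lower) stand beside the counts of each role group, and 2 of 7 lower at T24 is near that share. Pmvk, the kinase that adds the second phosphate to mevalonate, had 702, 751 and 762 normalized counts in the WT ESC libraries and 1338, 1333 and 1373 in the iEZR_CA ones. Its T24 values were 925, 955 and 995 in WT and 1507, 1649 and 1527 in iEZR_CA cells, followed by 1055, 948 and 1102 against 1392, 1388 and 1442 at T48. The iEZR_CA libraries stood above the WT libraries at every stage, by a log2 fold change of 0.85 (SE 0.048, edgeR adjusted p = 5.9e-25) in ESCs, 0.72 at T24 and 0.43 at T48.

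Hmgcs1, which makes HMG-CoA and is a classical SREBP2 target, moved differently. In ESCs it had 6749, 7005 and 6957 normalized counts in WT and 6787, 6640 and 6761 in iEZR_CA libraries. By T24 there were 13424, 13726 and 13901 in WT and 9776, 10035 and 9496 in iEZR_CA cells, followed by 12929, 13457 and 13514 against 11998, 12110 and 11915 at T48. The lines overlapped in ESCs (log2 fold change -0.05, SE 0.026, edgeR adjusted p = 0.14) and iEZR_CA cells were lower at T24 (-0.48, SE 0.025, adjusted p = 1.4e-26). They were also lower at T48 (-0.14, SE 0.025, adjusted p = 1.9e-06), a call that was lost when libraries were scaled by the spike-in RNA (adjusted p = 0.64). Of the other mevalonate genes, Mvd (the decarboxylase that makes isopentenyl pyrophosphate) was higher at 0.56, 0.57 and 0.50 and Mvk (mevalonate kinase) at 0.41, 0.45 and 0.52 in ESCs, at T24 and at T48, and Acat2 (cytosolic thiolase) at 0.15, 0.30 and 0.22, of which the first and last calls were lost with spike-in scaling (adjusted p = 0.22 and 0.07). Idi1, the isomerase of isopentenyl pyrophosphate, was higher in ESCs (0.23), lower at T24 (-0.21) and not called at T48 (0.02, SE 0.061, adjusted p = 0.78), and its calls were lost with spike-in scaling (adjusted p = 0.09 and 0.52).

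Fdps, which makes farnesyl pyrophosphate, could not be measured well. Its own entry held 54.2 ± 5.43 normalized counts in WT ESCs and 144 ± 4.1 in iEZR_CA T48 cells, while 4 processed pseudogenes at least 95% identical to its transcript over 150 bases or more held most of the counts, led by Gm3571 on chromosome 10 with 1583 ± 61.5 and 3452 ± 84.5. The entry of Fdps made up 2.98% of the sum of the 5. Summed, they gave 2200 ± 94.7 in WT and 3090 ± 90.1 in iEZR_CA ESCs (log2 fold change 0.49, SE 0.032, edgeR adjusted p = 2.6e-21), 3183 ± 11.2 and 3638 ± 58.2 at T24 (0.19, SE 0.031), and 3836 ± 58.2 and 4886 ± 72.6 at T48 (0.35, SE 0.03). Fdps alone gave 0.77, 0.32 and 0.29, and its calls at T24 and T48 were lost in DESeq2 (adjusted p = 0.085 and 0.12) and with spike-in scaling (adjusted p = 0.062 and 0.12). Idi1 with its 2 copies, Acaca with Gm5182 and Fdft1 with Gm6781, also on chromosome 14, have near-identical sequence too. Their own entries made up 52.5%, 45.8% and 85.7% of the sums. Fdft1 summed with Gm6781 gave -0.67 in ESCs, -0.96 at T24 and -0.69 at T48. Summing the copies left every call of the 3 comparisons between the lines as it was.

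In the steps from squalene to cholesterol, 10 of 11 genes were called higher in iEZR_CA ESCs, 9 at T24 and 10 at T48, and the medians were 0.61, 0.43 and 0.50. Hsd17b7, a reductase of sterol demethylation, had 510, 493 and 487 normalized counts in WT ESCs and 896, 932 and 867 in iEZR_CA ESCs. The T24 libraries had 757, 763 and 716 in WT and 942, 1004 and 961 in iEZR_CA cells, followed by 873, 912 and 906 against 1381, 1385 and 1357 at T48. In the main fit it had the largest rise of the 31 genes in ESCs (0.86, SE 0.051, edgeR adjusted p = 1.2e-23), close to Pmvk (0.85). With spike-in scaling the order was the reverse, 0.90 for Hsd17b7 and 0.92 for Pmvk. The difference of Hsd17b7 was 0.38 at T24 and 0.63 at T48.

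Ebp, the isomerase that shifts the double bond of the sterol ring, had 829, 762 and 781 normalized counts in WT ESCs and 1146, 1263 and 1214 in iEZR_CA ESCs. At T24 it had 470, 426 and 404 in WT and 765, 841 and 808 in iEZR_CA cells, followed by 158, 128 and 173 against 413, 358 and 394 at T48. Its level dropped with each day in both lines, and the libraries of the lines stayed apart. The difference between the lines was 0.61 in ESCs, 0.88 at T24 and 1.30 (SE 0.085, edgeR adjusted p = 3.3e-21) at T48, a 2.46-fold higher level.

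Nsdhl, a dehydrogenase of sterol demethylation, had 1070, 1029 and 1077 normalized counts in WT ESCs and 1378, 1502 and 1460 in iEZR_CA ESCs. Its T24 values were 1782, 1650 and 1691 in WT and 2274, 2363 and 2290 in iEZR_CA cells, followed by 1105, 1094 and 1198 against 2205, 2224 and 2269 at T48. It rose in both lines to T24. From ESC to T48 its change in WT was not called (0.09, edgeR adjusted p = 0.056) but was called in 6 of 26 alternatives, with values from 0.04 to 0.35, the highest with spike-in scaling (adjusted p = 0.014). The difference between the lines was 0.45, 0.43 and, at T48, 0.98 (SE 0.041, edgeR adjusted p = 6.4e-32).

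Lss, which closes squalene epoxide to lanosterol, had 1494, 1509 and 1581 normalized counts in WT ESCs and 2310, 2218 and 2318 in iEZR_CA ESCs. By T24 there were 3405, 3447 and 3403 in WT and 4236, 4394 and 4119 in iEZR_CA cells, followed by 4431, 4470 and 4624 against 6036, 6219 and 6067 at T48. The lines differed by 0.57, 0.32 and 0.44. Sqle, squalene epoxidase, a step at which the pathway is controlled, crossed over: its mean was 3864 ± 49.4 in WT and 6084 ± 133 in iEZR_CA ESCs (0.65), 7369 ± 141 and 6792 ± 51.3 at T24 (-0.12), and 7106 ± 84.8 and 8040 ± 176 at T48 (0.19). With spike-in scaling its calls at T24 and T48 were lost (adjusted p = 0.82 and 0.12). The remaining genes of this group, Cyp51, Tm7sf2, Msmo1, Sc5d and Dhcr7, were higher in iEZR_CA cells at all 3 stages, between 0.13 (Cyp51 at T24) and 0.79 (Dhcr7 in ESCs). With spike-in scaling Cyp51 at T24 (adjusted p = 0.19) and Tm7sf2 in ESCs (adjusted p = 0.22) were not called.

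Fdft1, squalene synthase, was the exception. It had 3597, 3616 and 3667 normalized counts in WT ESCs and 2354, 2333 and 2149 in iEZR_CA ESCs. The T24 libraries had 5054, 5050 and 5202 in WT and 2750, 2628 and 2540 in iEZR_CA cells, followed by 3809, 3732 and 3634 against 2309, 2345 and 2314 at T48. All iEZR_CA libraries were lower, by -0.67 (SE 0.033, edgeR adjusted p = 3.9e-28), -0.95 (SE 0.032) and -0.67 (SE 0.032). The gene lies on chromosome 14 (GRCm38, chr14:63145150-63179578), in a stretch that is lower in iEZR_CA cells: the 42 other tested genes within 2.5 Mb had median differences of -0.92, -0.71 and -0.96 at the 3 stages, and all 642 tested on the chromosome -0.30, -0.35 and -0.25. Of its exon bases 18.3% are shared with Ctsb on the opposite strand, and whether counting used strand is not given in the sources used here.

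Neighbouring genes were compared for all 31 in the same way. The median of the 31 after subtraction of the median of genes within 2.5 Mb was 0.43 in ESCs, 0.32 at T24 and 0.42 at T48, and 29, 27 and 29 genes lay above their neighbours. Chromosome 8, with Mvd and Msmo1, had medians of 0.18, 0.21 and 0.18. Msmo1 (15 neighbours) had a window median of 0.88 at T48, above its own 0.46. Subtraction of the window median turned the sign of 5 called differences, Fdft1 in ESCs (to 0.24) and at T48 (to 0.28), Sqle (to 0.01) and Insig1 (to 0.15) at T24, and Msmo1 at T48 (to -0.42).

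**Figure D3:**
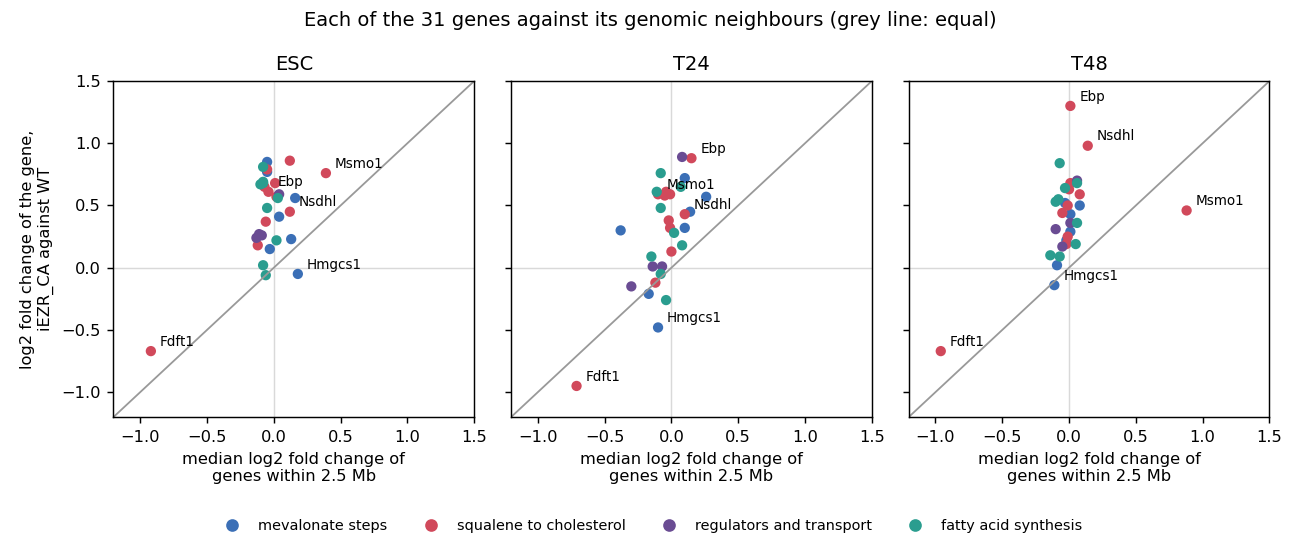
Log2 fold change of each of the 31 genes between the lines (y axis) against the median of the tested genes within 2.5 Mb (x axis) in ESCs, at T24 and at T48, coloured by role, with a grey line of equality. Most genes sit above the line near an x value of 0, and Fdft1 lies apart at window medians of -0.92, -0.71 and -0.96.

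The 4 regulators and carriers were all called higher in iEZR_CA ESCs and at T48, and 1 was higher and 1 lower at T24. Srebf1 had 3180, 3306 and 3234 normalized counts in WT ESCs and 5003, 4816 and 4914 in iEZR_CA ESCs. At T24 it had 2720, 2784 and 2718 in WT and 5214, 5005 and 5062 in iEZR_CA cells, followed by 2183, 2229 and 2215 against 3556, 3565 and 3630 at T48. The difference was 0.59, 0.89 (SE 0.029, edgeR adjusted p = 8.9e-38) and 0.70.

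Srebf2 had 9445, 9544 and 9324 normalized counts in WT ESCs and 11350, 11184 and 11476 in iEZR_CA ESCs. Its T24 values were 11802, 11908 and 12221 in WT and 12081, 12353 and 11759 in iEZR_CA cells, followed by 12089, 12309 and 12238 against 13957, 13544 and 13539 at T48. The lines differed by 0.26 in ESCs, overlapped at T24 (0.01, SE 0.025, edgeR adjusted p = 0.68), and differed by 0.17 at T48, a call lost with spike-in scaling (adjusted p = 0.15). Per kilobase of exon, Srebf2 had 1314 normalized counts in WT ESCs and Srebf1 575.

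Insig1, which holds SREBP back and is itself a target of it, had 3626, 3456 and 3543 normalized counts in WT ESCs and 4270, 4332 and 4008 in iEZR_CA ESCs. By T24 there were 4902, 4696 and 4789 in WT and 4360, 4345 and 4303 in iEZR_CA cells, followed by 5563, 5334 and 5224 against 6714, 7008 and 6861 at T48. It was higher in iEZR_CA ESCs (0.24), lower at T24 (-0.15, edgeR adjusted p = 2.4e-05) and higher at T48 (0.36), and the first 2 of these calls were lost with spike-in scaling (adjusted p = 0.06 and 0.69). Stard4, which carries cholesterol between membranes, was higher at 0.27 in ESCs and 0.31 at T48 and not called at T24 (0.01, adjusted p = 0.83).

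**Figure D4:**
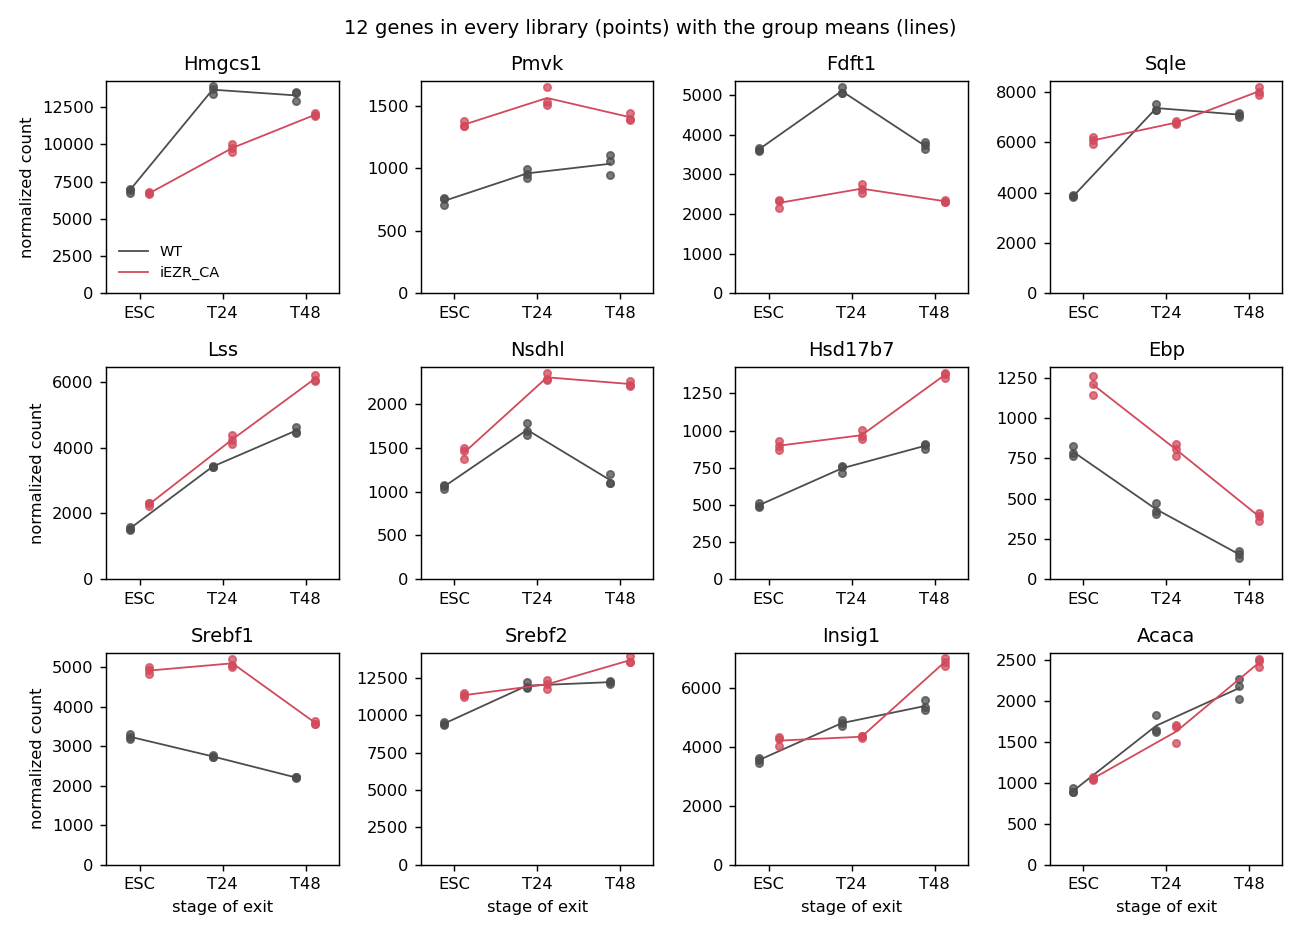
Normalized counts (y axis, from 0) of 12 genes in every library at each stage (x axis), WT in grey and iEZR_CA in red, with lines through the group means. Sqle and Insig1 cross between the stages, Ebp falls in both lines, and Fdft1 is lower in all iEZR_CA libraries.

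Of the 9 fatty acid genes, 7 were called higher in iEZR_CA ESCs, 7 at T24 and 8 at T48, and Fasn was called lower at T24. Scd1 and Scd2, the stearoyl-CoA desaturases that make monounsaturated fatty acids, were at 6714 ± 259 and 23340 ± 676 normalized counts in WT ESCs and at 11851 ± 214 and 37427 ± 537 in iEZR_CA ESCs, differences of 0.81 and 0.67. Scd1 kept 0.65 at T24 and 0.84 at T48, and Scd2 0.28 and 0.55. Per kilobase of exon, with all annotated exons of a gene joined, Scd2 was the most abundant of the 31 genes in every group. It went from 4272 normalized counts in WT ESCs to 7286 in iEZR_CA T48 cells. Acly was at 3954 in WT ESCs, and the order there depends on the length used. Joined exons are 5464 bases for Scd2 and 5279 for Acly, and the longest coding transcripts 5455 and 4426. Fads1 and Fads2, the front-end desaturases of polyunsaturated fatty acids, were higher by 0.68 and 0.69 in ESCs, 0.61 and 0.76 at T24 and 0.36 and 0.68 at T48. Acsl3, which activates fatty acids to their CoA esters, was higher by 0.48, 0.48 and 0.64, and Elovl6, an elongase, by 0.56, 0.09 and 0.53. The Elovl6 call at T24 was lost with spike-in scaling (adjusted p = 0.32).

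Acaca, Fasn and Acly feed and build palmitate. Acaca, acetyl-CoA carboxylase, had 937, 883 and 886 normalized counts in WT ESCs and 1076, 1033 and 1051 in iEZR_CA ESCs. The T24 libraries had 1645, 1616 and 1827 in WT and 1683, 1702 and 1488 in iEZR_CA cells, followed by 2179, 2019 and 2268 against 2506, 2482 and 2409 at T48. The lines differed by 0.22 and 0.19 in ESCs and at T48, calls lost with spike-in scaling (adjusted p = 0.1 and 0.11), and overlapped at T24 (-0.05, SE 0.045, edgeR adjusted p = 0.33). Fasn, fatty acid synthase, gave -0.06 in ESCs (SE 0.049, edgeR adjusted p = 0.37) and 0.09 at T48 (adjusted p = 0.15). The T48 value was called in 3 of 27 alternatives, with values from 0.05 to 0.14 over all of them. At T24 Fasn was lower (-0.26, adjusted p = 4.2e-04), a call lost with spike-in scaling (adjusted p = 0.26). Acly, which makes cytosolic acetyl-CoA from citrate, gave 0.02 in ESCs (adjusted p = 0.54), 0.18 at T24 and 0.10 at T48, and the last 2 were not called with spike-in scaling (adjusted p = 0.086 and 0.33).

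During exit most of the genes rose in both lines. In WT cells 26 of 31 were called higher and 4 lower at T24 than in ESCs (all genes 31.8% and 33.6%), with a median of 0.43. From T24 to T48 the split was 14 higher and 11 lower (all genes 32.8% and 32.9%), with a median of 0.03. Over the 48 h 22 rose and 5 fell (all genes 37.1% and 37.4%), with a median of 0.57. In iEZR_CA cells 21 rose and 3 fell in the first 24 h (all genes 27.1% and 28.9%, median 0.21), 19 rose and 7 fell in the second (29.6% and 30.0%, median 0.15), and 22 rose and 2 fell over the 48 h (35.2% and 35%, median 0.47).

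In both lines 20 genes rose from ESC to T24 (19.9% of all tested genes did so), 21 rose from ESC to T48 (27.1% of all tested genes did so), and Ebp and Srebf1 fell in both (28.0%). With spike-in scaling the fall of Srebf1 in iEZR_CA cells was not called (-0.20, edgeR adjusted p = 0.16). The largest rises over the 48 h were those of Lss, by 1.55 (SE 0.032) in WT and 1.42 (SE 0.031) in iEZR_CA cells, and of Acaca, by 1.26 (SE 0.047) and 1.23 (SE 0.046). Fads2 rose by 1.0 and 0.99, Hmgcs1 by 0.93 and 0.83, and Fasn by 0.60 and 0.74. Ebp changed by -2.33 (SE 0.076, edgeR adjusted p = 1.8e-37) in WT and by -1.64 (SE 0.06, adjusted p = 1.6e-34) in iEZR_CA cells, and Srebf1 by -0.57 and -0.46, or by -0.31 and -0.20 with spike-in scaling.

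Whether the change on exit differed between the lines was tested as an interaction, which is the change in iEZR_CA minus the change in WT cells. From ESC to T24, 17 of 31 genes had a lower and 5 a higher interaction (all genes 16.9% and 21.5%), with a median of -0.20 against 0.01. The largest was Sqle, which rose by 0.92 (SE 0.027) in WT and by 0.16 (SE 0.027) in iEZR_CA cells (1.05 and 0.30 with spike-in scaling), an interaction of -0.76 (SE 0.038, edgeR adjusted p = 4.9e-27). Hsd17b7 gave -0.48, Elovl6 -0.47, Hmgcs1 -0.44, Idi1 -0.43, Insig1 -0.39, Fdft1 -0.28, Acaca -0.27, Lss -0.25, Srebf2 -0.24 and Dhcr7 -0.21, while Tm7sf2 (0.42), Srebf1 (0.30) and Ebp (0.27) gave higher values and Pmvk was not called (-0.14, adjusted p = 0.1). These calls depend on the scaling: with spike-in scaling 1 gene kept a lower interaction, Sqle (-0.75, adjusted p = 4.2e-04), and none a higher one, while the median was -0.18.

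**Figure D5:**
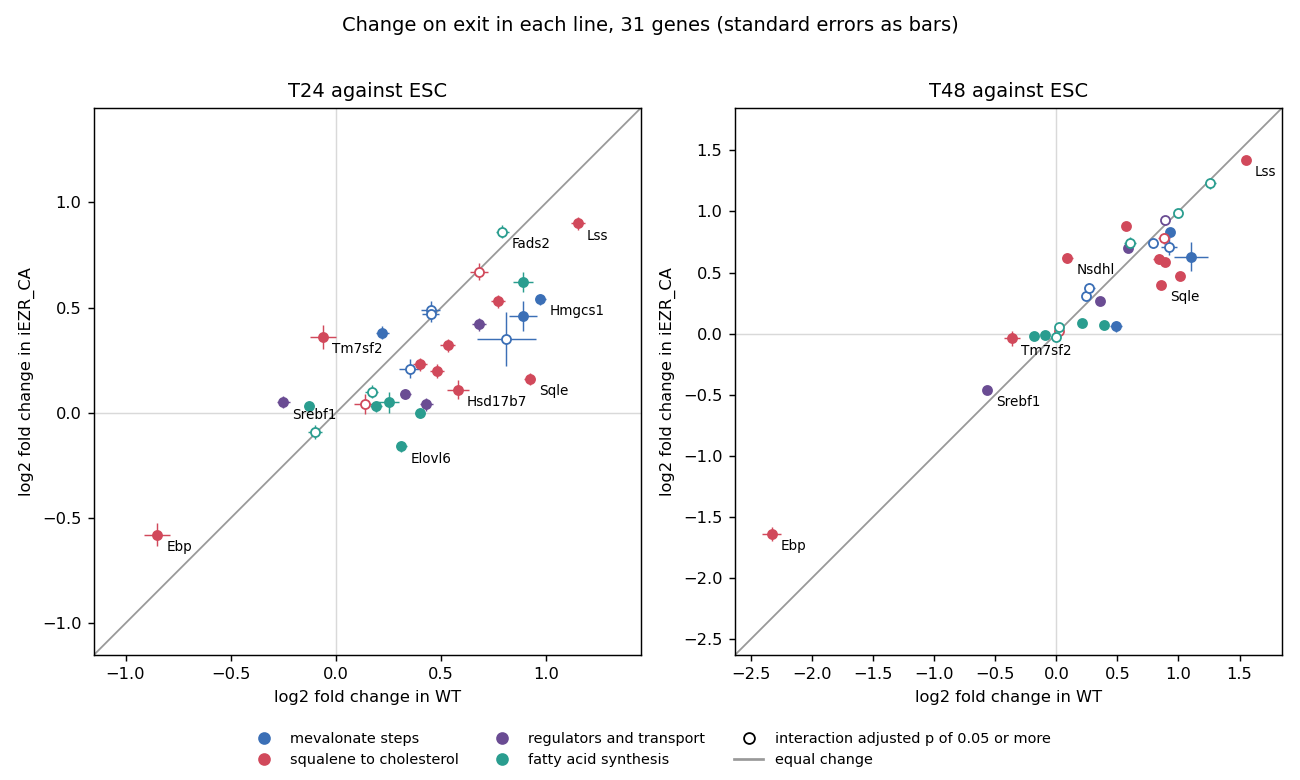
Log2 fold change from ESC to T24 and from ESC to T48 in WT (x axis) and iEZR_CA cells (y axis) for the 31 genes, with SE as bars, colours by role, a grey line of equal change and open circles where the interaction was not called. At T24 22 genes lie below the line, with Sqle at 0.92 and 0.16, and at T48 18 do. From T24 to T48 20 genes are nearer to the line and 11, Ebp and Nsdhl among them, farther from it.

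Over the 48 h, 11 genes had a lower and 8 a higher interaction (all genes 20% and 25.7%), with a median of -0.03. Ebp (0.69, SE 0.10, edgeR adjusted p = 5.6e-08) and Nsdhl (0.53, SE 0.059, adjusted p = 9.0e-12) had the highest values, and Dhcr7 (-0.54, SE 0.048), Sqle (-0.46, SE 0.038) and Pmvk (-0.43, SE 0.066) were among the lowest. The first 4 of these were the genes that kept the call with spike-in scaling. Hsd17b7 gave -0.23, Lss -0.12, Hmgcs1 -0.10, Srebf2 -0.09, and Srebf1 and Insig1 0.11 each. These 6 small values are called weakly: of 26 alternatives the call was lost in 3 for Hsd17b7, 5 for Lss, 7 for Hmgcs1, 10 for Srebf2, 7 for Srebf1 and 8 for Insig1, in all but Hsd17b7 also when some single libraries were left out.

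Genes around the pathway were counted in 6 further lists, beside 26.4%, 30.8% and 31% of all tested genes called higher and 28.1%, 30.1% and 30.1% called lower in ESCs, at T24 and at T48. Of 7 tested genes listed for SREBP processing, 6 were called higher in iEZR_CA ESCs, 5 at T24 and 6 at T48, and 1, 1 and 0 lower. Scap, the sterol sensor that escorts SREBP, was at 980 ± 60.9 normalized counts in WT and 1551 ± 27 in iEZR_CA cells at T24 (0.67, SE 0.044, edgeR adjusted p = 1.4e-21). The counts of this list include Ubxn8, 0.56 higher in ESCs, whose part in SREBP processing was not established here. Mbtps2, the site-2 protease that releases SREBP, was at -0.29 in ESCs.

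Of 10 genes of sterol export and the LXR response, 4, 8 and 7 were called higher in ESCs, at T24 and at T48, and 3, 2 and 2 lower, the ESC split being not far from that of all genes. Soat1, which stores cholesterol as esters, was at 195 ± 13.3, 678 ± 71.7 and 6721 ± 89.9 normalized counts in WT cells and at 150 ± 10.4, 265 ± 7.21 and 2083 ± 142 in iEZR_CA cells. It rose steeply in both lines and was lower in iEZR_CA cells at T48 (-1.68, SE 0.041, edgeR adjusted p = 9.5e-33). Abca1, a cholesterol exporter and LXR target, was at 543 ± 16.7 in WT and 1270 ± 57.7 in iEZR_CA ESCs (1.21, SE 0.056) and fell to 85.9 and 108 at T48. Mylip, another LXR target, was 1.36 higher at T24, and Abcg1 -0.58 at T48.

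In the isoprenoid branch, which uses farnesyl pyrophosphate for prenylation, dolichol and ubiquinone, 5, 6 and 4 of 11 were called higher and 2, 4 and 3 lower, which at T48 is near the shares over all genes. Fntb and Fnta, the subunits of farnesyltransferase, were 0.62 and 0.57 higher at T48, and Coq2 and Pdss2, of ubiquinone synthesis, -1.06 at T48 and -0.44 at T24. Of 24 tested genes of fatty acid elongation and activation outside the 31, 17, 17 and 10 were called higher and 4, 4 and 8 lower, with Elovl7 (2.06) and Acsl6 (1.92) the largest rises, both at T24 from 35.1 and 42 normalized counts in WT, and Elovl4 (-0.96 in ESCs) and Acsl5 (-0.70 at T24) the largest falls, all among called genes with a mean of at least 50 normalized counts.

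Of 20 tested genes of fatty acid oxidation, 10, 14 and 15 were called higher in ESCs, at T24 and at T48 and 7, 3 and 3 lower, the list median at T48 being 0.51. Slc25a20, the mitochondrial carnitine carrier, was at 299 ± 2.22 in WT and 790 ± 32.7 in iEZR_CA cells at T48 (1.40, SE 0.058, edgeR adjusted p = 4.0e-32). Ehhadh was -0.61 in ESCs and 1.36 higher at T48, and Cpt2 -0.61 at T48. Of 16 tested genes of phospholipid and triglyceride synthesis 8, 9 and 10 were called higher and 1, 5 and 3 lower, of which the 5 lower at T24 are near the share over all genes. Dgat2, which makes triglyceride, was 1.28 higher at T24 and -0.90 at T48, Agpat3 0.90 higher and Cds1 -0.86 at T24.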

How the data were processed

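The authors sequenced 18 libraries of mouse ES cells, used Trim Galore 0.6.5 for trimming, GSNAP 2015-09-29 for alignment to mm10 (GRCm38) and HTSeq with the Ensembl 81 annotation for counting, and the deposited values are whole, unnormalized counts per gene in each library. The strand setting is not given in the sources used here. Reads outside genes or on spike-ins took 22.1% to 25.1% of a library and stayed out of the tests. Symbols and coordinates came from GENCODE M21 (53706 of 53801 identifiers). The labels name libraries by plate well, so p-values measure the spread between these samples.

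The test was that of edgeR 4.0.16 under R 4.3.3 (filterByExpr, TMM factors 0.975 to 1.03, a term for each of 6 groups, robust quasi-likelihood test, 12 residual degrees of freedom), with Benjamini-Hochberg adjustment over 18469 genes. The coefficient of variation between replicates was 2.98%, so small changes can be called. At 10940752 to 33276622 counts per library, counting error is small for most of the genes. Normalized counts used DESeq2 1.42.0 size factors. Chi-square per degree of freedom between replicates was 1.55 to 3.33, more than counting noise alone gives, so no library was another one read again. The value cannot tell separate cultures from separate preparations of the same RNA. The fit was tested on simulated data.

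The 31 genes, their role groups and the other lists were chosen with earlier results of these data known. Every library's value is given for genes among the 2 largest rises or falls (adjusted p under 0.05) between the lines at any stage or from ESC to T48 in either line, and for Srebf1, Srebf2, Insig1 and Fdft1; from the other lists, the 2 largest rises and falls between the lines with a mean normalized count of at least 50. Sqle, Scd1, Scd2 and other genes were named after their values were seen. Alternatives were DESeq2, other filters and scalings, a fold threshold, fewer groups and leaving out each library; summing near-identical copies was chosen after seeing the data.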

Additional observations from a re-analysis of the deposited data

Results flagged for a closer look

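The change on exit differed between the lines by the interaction test of edgeR for most of the genes named with a value. For ESC to T24 the interaction, iEZR_CA minus WT, was -0.76 for Sqle, -0.48 for Hsd17b7, -0.47 for Elovl6, -0.44 for Hmgcs1, -0.43 for Idi1, -0.39 for Insig1, -0.28 for Fdft1, -0.27 for Acaca, -0.25 for Lss, -0.24 for Srebf2 and -0.21 for Dhcr7, and 0.42 for Tm7sf2, 0.30 for Srebf1 and 0.27 for Ebp. For ESC to T48 it was -0.54 for Dhcr7, -0.46 for Sqle, -0.43 for Pmvk, -0.23 for Hsd17b7, -0.12 for Lss, -0.10 for Hmgcs1 and -0.09 for Srebf2, and 0.69 for Ebp, 0.53 for Nsdhl, 0.11 for Srebf1 and 0.11 for Insig1. The T48 values of Hsd17b7, Lss, Hmgcs1, Srebf2, Srebf1 and Insig1 lost their call in 3 to 10 of 26 alternatives. With spike-in scaling the calls that held were those of Sqle at T24 and of Ebp, Nsdhl, Sqle and Dhcr7 at T48, and all other values in this paragraph lost theirs.

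The share of reads aligned with low quality, which no comparison uses, lay between 0.519% and 0.612% in WT libraries and between 0.889% and 1.02% in iEZR_CA libraries, without overlap. Its part in the differences was not tested.

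Gm3571, a processed pseudogene near-identical to Fdps (chr10:93778660-93779719, GRCm38), held 3452 normalized counts in iEZR_CA T48 cells against 2740 in WT T48 cells, where the entry of Fdps itself held 144 and 116. From which of the copies these reads come was not tested.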

How the results depend on the processing

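Of 175 fold changes of single genes of the 31 that were followed, the 161 called kept their direction with DESeq2, the other filters, scalings and sample choices, summed copies and left-out libraries. Subtraction of the chromosome median was run for the 93 differences between the lines and turned none of those called. Subtraction of the median of genes within 2.5 Mb is not among these settings and turned 5 called differences. Values not called crossed 0: with spike-in scaling Hmgcs1 (0.01) and Fasn (0.00) in ESCs and Acaca at T24 (0.02), Acaca also with library totals (0.01). Leaving out single libraries gave -0.01 to 0.03 for Acly in ESCs, -0.09 to 0.01 for Acaca, 0.00 to 0.03 for Srebf2 and -0.01 to 0.02 for Stard4 at T24, and -0.06 to 0.10 for Idi1 at T48. With library totals Srebf2 (0.08) and Stard4 (0.07) were called at T24.

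With an added limit of 0.5 on the log2 fold change, the genes called higher between the lines numbered 16 in ESCs, 11 at T24 and 14 at T48, and 1 lower at T24 and at T48. In WT 12 rose and 1 fell to T24, 1 rose and 2 fell from T24 to T48, and 16 rose and 2 fell over 48 h. In iEZR_CA cells these were 6 and 1, 7 and 2, and 15 and 1. Of the interactions 0 were higher and 1 lower for T24, and for T48 2 were higher and 1 lower. The shares of all genes that pass the limit on exit or in the interactions are not given here, so these counts are not set against them.

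Spike-in scaling left 22, 18 and 21 called higher between the lines, and 1 lower in ESCs, 2 at T24 and 1 at T48. Rises numbered 25 to T24, 13 from T24 to T48 and 25 over 48 h in WT and 18, 13 and 25 in iEZR_CA cells. Falls numbered 1 to T24, 3 from T24 to T48 and 2 over 48 h in WT and 1, 2 and 1 in iEZR_CA cells. For T24 0 interactions were higher and 1 was lower, against 2 of each for T48. The shares of all genes called in this scaling are not given here, so these counts are not set against them. Under it the median of all genes was 0.13 (WT) and 0.14 (iEZR_CA) from ESC to T24, against -0.01 in both in the main fit. To T48 it was 0.27 and 0.26, against 0.01 in both in the main fit. Beside these, the medians of the 31 in that scaling were 0.56 and 0.36 to T24 and 0.83 and 0.73 to T48. Spike-ins took 0.575% to 0.874% of reads within the iEZR_CA T48 group alone, and the cause of the lost calls was not tested. At T48 the higher interactions were 5 in DESeq2 and 5 with at least 10 counts in every library, and the lower ones 5 without a filter; the cause was not tested.

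The ratio of sums was 1.33, 1.16 and 1.29 with spike-in scaling, 1.15 at T24 and 1.25 at T48 with library totals, 1.24 at T48 with TMM, and 1.18, 1.05 and 1.17 without Scd1 and Scd2. Leaving out single libraries gave 1.27 to 1.29, 1.08 to 1.12 and 1.23 to 1.24, 26 to 27, 21 to 22 and 26 to 28 genes higher, and 1 to 2 lower in ESCs (2 without WT ESC replicate 1). Interactions at T48 ran from 5 (without WT T48 replicate 3) to 9 higher and from 7 (without WT ESC replicate 1) to 12 lower. No paired analysis was run, because the labels give no replicate numbers. The numbers used here follow the order of the samples and only name libraries. Whether a paired fit would change the calls was not tested.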
